A study of Mus musculus with 10 samples.

Results

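The cytoplasmic ribosomal protein genes were described in 3 RNA-seq replicates of E14, a mouse embryonic stem cell line. Members were the protein-coding genes whose GENCODE symbol starts with Rpl or Rps followed by a number and at most a short suffix, together with Rplp0, Rplp1, Rplp2 and Rpsa, without the Rps6k kinase genes. This rule found 84 genes of the 55487 in the tables, 32 of the small and 52 of the large ribosomal subunit. Of the 84, 77 are here called core genes and 7 are paralogs whose symbol adds a final l or l1 to that of a core gene. The rule used names only and no measured value.

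The series holds 10 samples of E14 cells in 6 groups. The 7 samples of MapR and BisMapR, methods that map R-loops (RNA paired with a strand of DNA), were not analysed here. The 3 RNA-seq replicates came from cells with no genetic change named in the labels, grown in 15% serum with LIF, a GSK inhibitor at 3 µM and a MEK1/2 inhibitor at 1 µM, and all 3 share these conditions. Nothing in the labels says that the replicates came from separate cultures, so each SD and p-value below measures only the spread between these 3 libraries.

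A ribosome is built from a small subunit, which reads the messenger RNA, and a large subunit, which joins amino acids into protein. Each subunit holds ribosomal RNA and many small basic proteins, nearly all needed in equal number, and the subunits are put together mainly in the nucleolus with the help of assembly factors. In mammals most of the proteins are each encoded by a single intron-containing gene, while the genome also carries many intronless copies made by reverse transcription of their abundant messenger RNAs, known as processed pseudogenes. The messenger RNAs usually start with a C followed by a run of pyrimidines, the 5′ terminal oligopyrimidine (TOP) motif, through which mTOR signalling and the RNA-binding protein Larp1 control their translation.

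Estimated counts summed to 11420425 in replicate 1, 6467405 in replicate 2 and 5787357 in replicate 3. A read that matches several genes is divided among them in such counts. Levels are given in TPM, a transcript abundance per unit of gene length with one fixed sum for each library. All 7 pluripotency markers on the list used had means of 16.6 to 183 TPM, with Nanog at 183 ± 29.9 TPM (SD, n = 3) and Pou5f1 at 149 ± 21.7 TPM (SD, n = 3). Of 8 early lineage markers, none reached a mean of 1 TPM, and of 6 feeder fibroblast markers only Thy1 did, at 2.503 ± 1.15 TPM (SD, n = 3), while Col3a1 and Lum had no counts. In bulk RNA a low level in every cell and a high level in few cells cannot be told apart.

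The start sites of these genes were looked at first, since the TOP motif is the feature for which the family is known. RefSeq promoter windows (GRCm38.p6, 250 bases before and 50 from the annotated start) matched 64 of the 84 members. The annotated first base was a C in 20 of the 64 (31.2%), against 14.9% of 7654 other protein-coding genes with a mean of at least 1 TPM. A C followed directly by at least 4 pyrimidines stood at the annotated start of 12 members (18.8%), against 2.31% of the other expressed genes and 2.16% of all 16528 protein-coding genes matched. The members in which it stood exactly there included these 6, shown as 10 bases before and 20 bases from the start with the pyrimidine run in capitals, because they carry the motif most plainly.
Rpl38 (chr11:114668570-114668599, plus strand): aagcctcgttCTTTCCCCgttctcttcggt
Rps10 (chr17:27635225-27635254, minus strand): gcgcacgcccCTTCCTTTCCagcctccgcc
Rps18 (chr17:33955646-33955675, minus strand): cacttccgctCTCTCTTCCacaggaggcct
Rpl15 (chr14:18270967-18270996, minus strand): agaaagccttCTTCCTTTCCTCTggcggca
Rps6 (chr4:86857348-86857377, minus strand): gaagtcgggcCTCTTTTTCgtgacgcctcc
Rpl35 (chr2:39005112-39005141, minus strand): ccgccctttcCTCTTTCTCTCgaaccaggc

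In most members the annotated start did not fall on such a run, but a run lay close by. Allowing the C to lie within 20 bases of the annotated start gave 49 of 64 members (76.6%), against 48.6% of the other expressed genes. A pyrimidine run of at least 8 bases starting in that window was present in 29 members (45.3%) and in 16.4% of the other expressed genes, and the median longest run was 7 bases in members and 5 in the others. Annotated starts are often some bases away from those used in a given cell, and no start was measured in these data. Annotations also differ among themselves. The RefSeq start used lay 301 bases from the GENCODE start for Rps10 and 493 for Rpl35. For Rps18, Rpl38, Rps6 and Rpl15 it lay 12, 29, 45 and 81 bases away. The words TATAAA and TATATA, read on both strands anywhere in the 300-base window, were each found in 6 members (9.38%). In the other expressed genes TATAAA was found in 5.88% and TATATA in 1.75%, and in all promoters matched in 12.9% and 5.19%. CCGGAAGT, a word bound by ETS factors such as GABP, was found in 11 members (17.2%), 10.2% of the other expressed genes and 5.59% of all promoters. AAGATGGC, a word bound by YY1, was found in 5 members (7.81%), 5.71% of the other expressed genes and 3.28% of all promoters. These matches describe the letters in the windows and no more.

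Ribosomal protein genes were among the most abundant messenger RNAs of these cells. A mean of at least 1 TPM was reached by 83 of the 84 members, 65 were at 100 TPM or more and 18 at 500 TPM or more. They made up 45 of the 100 protein-coding genes with the highest mean TPM. The median member stood at 248, 249 and 215 TPM in replicates 1, 2 and 3, against 7, 5.51 and 4.33 TPM for 9584 other expressed protein-coding genes. The difference of the medians was 5.19 ± 0.20 (SD, n = 3) on the log2(TPM + 1) scale and is a description, since the family is known to be abundant. Together the members held 3.43%, 3.82% and 4.41% of all estimated counts in replicates 1, 2 and 3, a mean of 3.89% ± 0.49 (SD, n = 3). The 95% Wilson intervals of these shares were 3.42% to 3.44%, 3.81% to 3.84% and 4.40% to 4.43%, which cover counting error only, so the replicates differed by more than counting error.

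Among the highest large subunit genes was Rpl41, which encodes the smallest ribosomal protein, at 933, 797 and 935 TPM in replicates 1, 2 and 3. Rpl23a, a protein at the exit of the tunnel through which the new protein chain leaves, stood at 806, 744 and 709 TPM. Rpl32 had 728, 655 and 689.9 TPM and Rpl10a, a protein of the flexible L1 stalk, 788, 594 and 610.5 TPM. The 3 replicates gave these genes similar levels, and the lowest single value among these 4 was 594 TPM.

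Of the small subunit genes Rpsa (ENSMUSG00000032518, chromosome 9, 120127689 to 120132369, GRCm38), whose protein also serves as a laminin receptor, was highest at 1534, 1082 and 1298 TPM. Rps24 had 798, 776 and 698 TPM. Rps2, at the entry of the messenger RNA channel, had 752, 579 and 527 TPM. Rps25, a protein needed by several viral internal ribosome entry sites, had 667, 599 and 509.96 TPM. Rps24, Rps2 and Rps25 were highest in replicate 1 and lowest in replicate 3, while Rpsa was lowest in replicate 2.

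The acidic stalk of the large subunit, which recruits and activates elongation factors, is made of Rplp0 with Rplp1 and Rplp2. Rplp1 had 489, 414 and 574 TPM, Rplp0 had 307, 254 and 239 TPM and Rplp2 had 160.8, 133 and 113 TPM. At the genes themselves this order held in every replicate and the ranges did not overlap. With the TPM of near-identical copies added, as described further on, Rplp0 stood above Rplp1 in every replicate, at 744, 535 and 588 TPM against 489, 415 and 576 TPM. With the counts of gene and copies divided by the gene's own length, the means were 505 TPM for Rplp0 and 493 TPM for Rplp1. On that measure Rplp0 lay below Rplp1 in replicate 3, so the order depended on the measure.

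**Figure D1:**
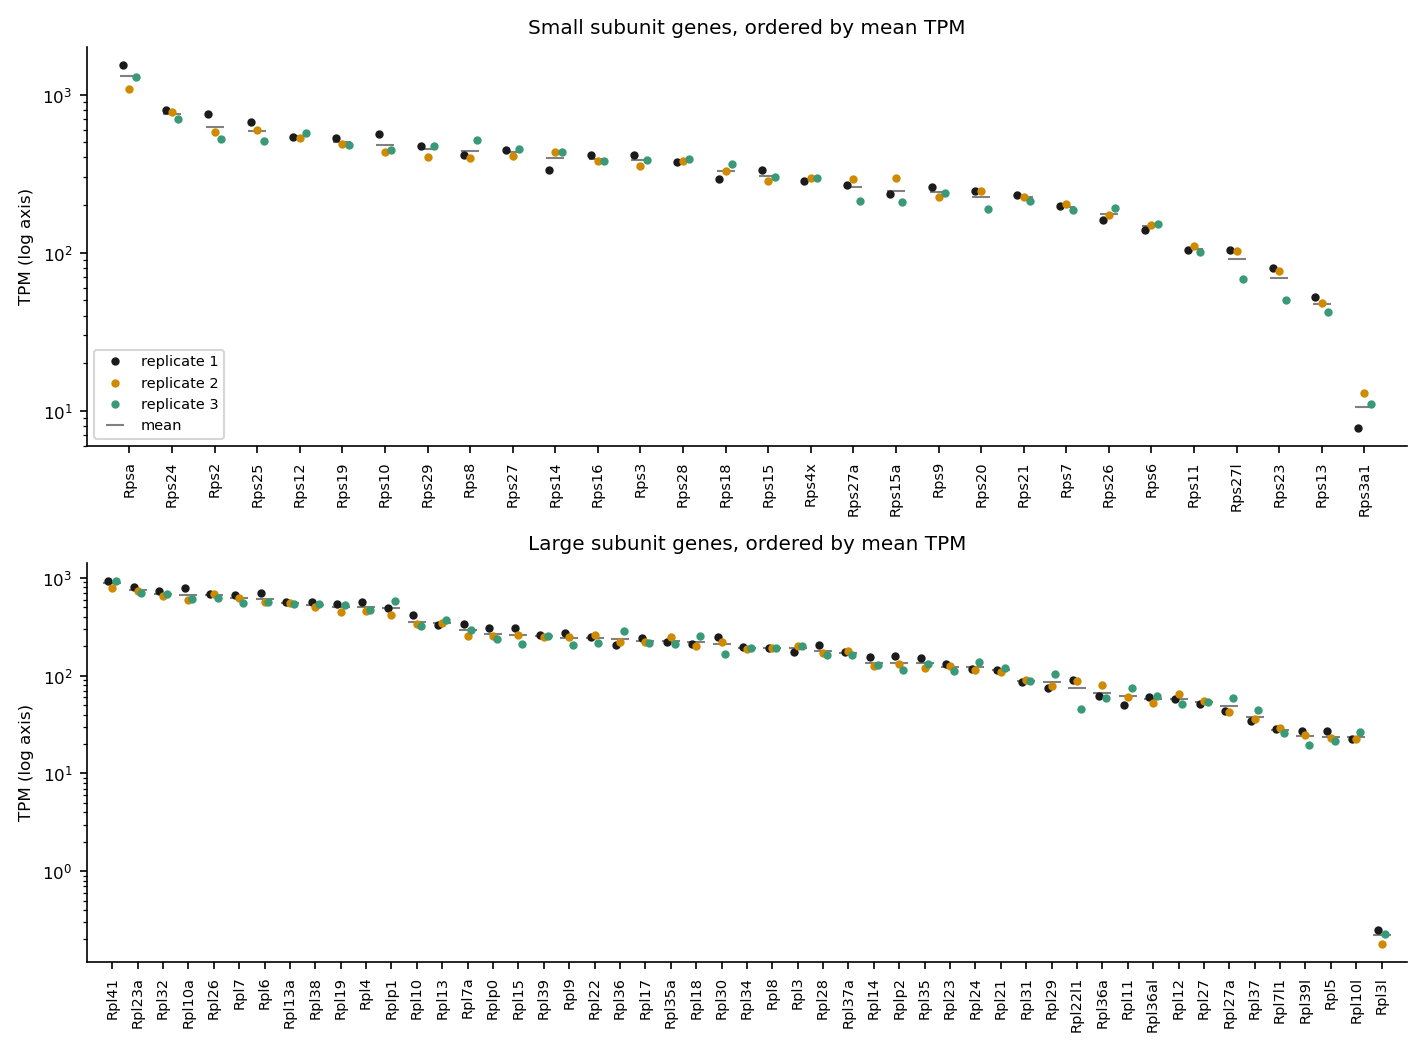
Levels of 81 ribosomal protein genes in TPM (log axis), one column per gene in order of mean TPM, with the small subunit above and the large subunit below; coloured points are the replicates and grey bars the mean of 3. Of the 84 members 65 lie at 100 TPM or more, and a tail of low genes ends in Rps3a1 (10.6 TPM) for the small and Rpl3l (0.22 TPM) for the large subunit.

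The lower end of the distribution held genes whose proteins every ribosome contains. Rps3a1 had 7.76, 12.98 and 11.09 TPM, Rpl5 had 27.1, 23.1 and 21.3 TPM, Rpl37 had 34.3, 35.7 and 44.2 TPM and Rps13 had 52.7, 47.8 and 42.0 TPM. Rps3a1 encodes a protein at the messenger RNA exit of the small subunit, and Rpl5 encodes the protein that with Rpl11 carries 5S ribosomal RNA into the large subunit. The 90th percentile of the core genes was 9.80 times the 10th, although their products are used in nearly equal number. Messenger RNA level and protein level are different measures, and protein was not measured here.

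These low values were set beside the near-identical copies of the same genes. The coding sequence of each member was aligned to all annotated transcripts (GENCODE vM21, GRCm38), and a gene was called a near-identical copy if it matched at least 50% of the coding sequence at 95% identity or more. This found 590 copies of 79 members: 559 annotated as processed pseudogenes, 16 as transcribed processed pseudogenes, 14 as protein-coding and 1 as a long intergenic noncoding RNA. Copies were found for 30 of 32 small and 49 of 52 large subunit members. In 26 copies, belonging to 20 members, the whole coding sequence was identical. The 5 members with no copy included Rpl8, Rps27l, Rpl39l and Rpl3l. A count that is a whole number in all 3 replicates (to within 0.005), which a gene has where none of its reads are divided, was seen in 5 members, Rpl8, Rpl39l, Rpl10l and Rpl3l among them.

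For 16 members the gene itself held less than 50% of the estimated counts of its family, meaning the gene plus its copies, and for 49 it held at least 90%. The 16 were 6 of 32 small subunit and 10 of 52 large subunit genes. The same number, 16, had a single copy with more counts than the gene. The copies together held 1.28%, 1.38% and 1.47% of all counts in replicates 1, 2 and 3, and the 65 copies with a mean of at least 100 counts made up 96.8% of this. The copies named below with a Gm symbol were chosen after their values were seen.

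The most uneven family was that of Rps3a1 (chromosome 3, 86137940 to 86142702, minus strand, 6 exons). It was assigned 177, 205 and 178 counts in replicates 1, 2 and 3. Its single-exon copy Rps3a2, a processed pseudogene on chromosome 14 (88123017 to 88123808), was assigned 13252, 7673 and 6907 counts, and Rps3a3 on chromosome 13 a further 4018, 2609 and 2443. The gene therefore held 1.01%, 1.95% and 1.86% of its family. The coding sequences of Rps3a1 and Rps3a2 differ at 4 of 792 bases, T216C, T534C, A645T and T668C, counted from the A of the start codon with the base of the gene first. The 60 bases around the first difference show how alike the 2 loci are (capitals mark the base that differs).
Rps3a1 (chr3:86141348-86141407, minus strand): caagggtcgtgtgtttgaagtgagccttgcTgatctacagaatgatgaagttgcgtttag
Rps3a2 (chr14:88123564-88123623, minus strand): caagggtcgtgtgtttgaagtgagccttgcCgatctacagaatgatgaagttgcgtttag

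Rpl5 (chromosome 5, 107900502 to 107909005, 8 exons) was assigned 734, 472 and 398 counts, and Gm15500, a transcribed processed pseudogene on chromosome 7 (114705217 to 114706235), 10773, 7083 and 6221. The gene held 6.38%, 6.24% and 6.004% of its family. All 891 bases of the coding sequence are identical in both, and bases 4 to 63 are printed for each locus to show it.
Rpl5 (chr5:107901870-107901929, plus strand): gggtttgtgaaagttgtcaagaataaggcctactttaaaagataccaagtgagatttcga
Gm15500 (chr7:114706101-114706160, minus strand): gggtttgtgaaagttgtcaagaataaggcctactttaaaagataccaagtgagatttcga

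Rps13 (chromosome 7, 116331505 to 116334195) was assigned 723, 443 and 402 counts and held 11.2%, 12.7% and 12.3% of its family. Rps13-ps1 on chromosome 8 was assigned 5495, 2853 and 2659 counts and differs from the coding sequence at T411C and A429G. Rpl3, whose protein reaches the peptidyl transferase centre, was assigned 5495, 4407 and 4385 counts and held 30.3%, 38.7% and 37.4% of its family. Rpl3-ps1 on the X chromosome was assigned 12573, 6919 and 7299 counts and differs at C57A and T786C of 1209 bases. Windows around the first difference of each pair are shown, again with that base in capitals.
Rps13 (chr7:116332379-116332438, minus strand): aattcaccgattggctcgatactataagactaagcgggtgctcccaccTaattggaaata
Rps13-ps1 (chr8:87048082-87048141, plus strand): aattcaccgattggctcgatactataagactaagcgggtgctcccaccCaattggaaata
Rpl3 (chr15:80082500-80082559, minus strand): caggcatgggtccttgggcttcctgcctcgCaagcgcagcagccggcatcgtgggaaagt
Rpl3-ps1 (chrX:13202598-13202657, plus strand): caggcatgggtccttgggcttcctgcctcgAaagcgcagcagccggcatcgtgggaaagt

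The remaining members under 50% were Rpl12 (13.2% ± 0.93, SD, n = 3, with the identical copy Gm10275), Rpl27 (20.6% ± 4.09, SD, n = 3, with the identical copy Gm11518), Rps23, Rpl27a, Rpl31, Rps6, Rpl14, Rpl11, Rps7, Rpl35, Rps2 and Rpl29. Their shares lay between 13.2% and 46.7%. Except for Rpl11 and Rpl29, each was under 50% in all 3 replicates. Rpl11 went from 41.4% in replicate 1 to 51.5% in replicate 3 and Rpl29 from 39.0% to 54.5%. Loci with the same sequence over a read cannot be told apart by that read, and which locus the divided counts came from was not tested.

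Adding the TPM of the copies to that of the gene brought the core genes closer together. The lowest mean was 10.6 TPM for the gene alone and 69.9 TPM with copies, and the ratio of the 90th to the 10th percentile was 9.80 for the gene alone and 3.66 with copies. The SD of log2 TPM across the 77 core genes was 1.34 ± 0.05 (SD over 3 replicates) for the gene alone and 0.83 ± 0.05 with copies. Core genes under 100 TPM numbered 12 for the gene alone and 1 with copies, Rpl36a. The mean at least doubled in 21 core genes, and Rps3a1 stood at 981, 852 and 759 TPM with its copies. Because some copies are short, which raises their TPM, the family counts were also divided by the gene's own length, which gave an SD of 0.89 ± 0.04, a percentile ratio of 4.005 and 2 core genes under 100 TPM. A limit of 98% identity over 90% of the coding sequence left 244 copies and gave an SD of 0.83 and a percentile ratio of 3.65.

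**Figure D2:**
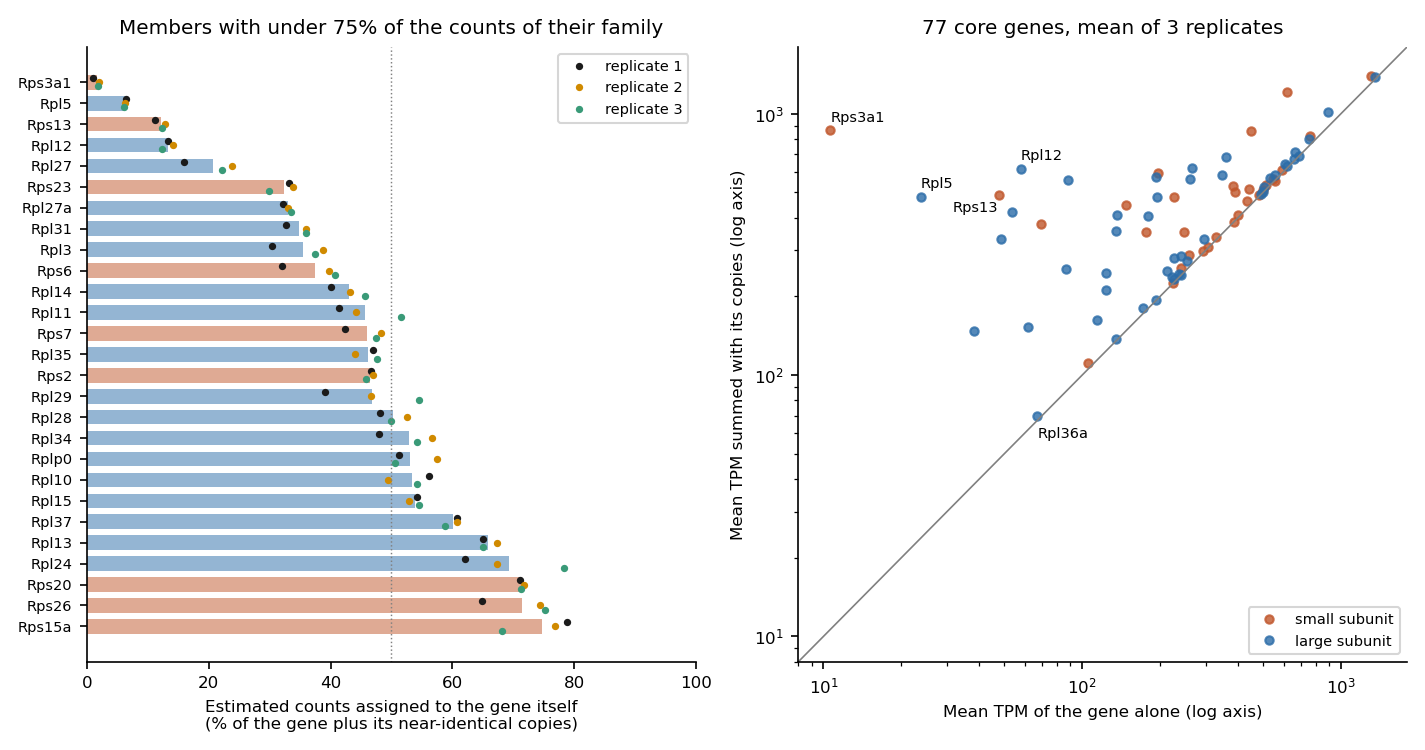
Left, estimated counts assigned to the gene as a percentage of the gene plus its near-identical copies, for the 27 members under 75%; bars are means of 3 replicates, in brown for the small and blue for the large subunit, and points are the replicates. Right, mean TPM of the 77 core genes alone (x axis) and summed with copies (y axis), both log axes, with the line of equality; Rps3a1, Rpl5, Rps13 and Rpl12 lie far above it.

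The median small subunit gene stood above the median large subunit gene in each replicate. It was at 332, 343 and 370.1 TPM in replicates 1, 2 and 3, against 205, 201 and 197 TPM for the large subunit. The middle 50% of genes overlapped widely, from 224 to 522 TPM for the small and 82.8 to 435 TPM for the large subunit in replicate 1. The large minus small difference of medians on the log2(TPM + 1) scale was -0.69, -0.77 and -0.90, a mean of -0.79 ± 0.11 (SD, n = 3). All 3 replicates had the same sign, and the exact two-sided sign-flip permutation test gave p = 0.25, the smallest that 3 replicates allow. With the copies added the difference was -0.43 ± 0.06 (SD, n = 3), at medians of 513, 455 and 449 TPM against 373, 330.2 and 348 TPM. With family counts over the gene's own length it was -0.59, and without the 7 paralogs, of which 6 belong to the large subunit, -0.68.

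The paralogs were compared with the core gene they are named after, per length and within each replicate. In 7 of 8 pairs the core gene was higher in all 3 replicates. Rpl3l, which replaces Rpl3 in adult muscle, was nearly absent at 7, 3 and 4 counts and 0.25, 0.18 and 0.23 TPM, where Rpl3 had 176, 200.2 and 200.8 TPM. Of 4 muscle markers, Ckm, Acta1 and Myh6 were at 0.03 TPM or less and Ttn was at 0.51 TPM. The log2(TPM + 1) difference of Rpl3 over Rpl3l was 7.31 ± 0.14 (SD, n = 3). It was 8.87 with the copies of Rpl3 added, 9.24 with a pseudocount of 0.1 and 8.63 with CPM in place of TPM. The 2 coding sequences are 74.4% identical.

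Rpl10l and Rpl39l are autosomal paralogs of the X-linked genes Rpl10 and Rpl39 and are best known from male germ cells, in which the X chromosome is silenced. Both were present here, far below Rpl10 and Rpl39 but above the median of 5.64 TPM of the other expressed protein-coding genes. Rpl10l had 22.7, 22.3 and 26.3 TPM against 417, 337 and 321 TPM for Rpl10, a difference of 3.85 ± 0.29 (SD, n = 3) on the log2 scale, which was 4.79 with the copies of Rpl10 added. Rpl39l had 27.5, 25.0 and 19.4 TPM against 263, 248 and 252 TPM for Rpl39, a difference of 3.37 ± 0.23 (SD, n = 3). Rpl10l counts were whole numbers in every replicate, and the coding sequences are 84.7% identical for Rpl10 and Rpl10l and 85.0% for Rpl39 and Rpl39l. Of 5 germ cell markers, Prm1, Prm2 and Tnp1 had no counts, Ddx4 had 1.03 TPM and Dazl 14.7 TPM.

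Rpl36a on the X chromosome and Rpl36al, a gene with 1 exon on chromosome 12, were the pair at nearly equal levels. Rpl36a had 62.4, 79.6 and 58.9 TPM and Rpl36al 60.4, 53.01 and 61.4 TPM. The difference was 0.19 ± 0.34 (SD, n = 3), smaller than its spread, with a negative sign in replicate 3. Their coding sequences are 87.7% identical.

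Rpl22l1, a paralog of Rpl22 that binds RNA and has been linked to splicing, had 90.1, 88.5 and 46.1 TPM against 247, 260.3 and 216 TPM for Rpl22, a difference of 1.73 ± 0.41 (SD, n = 3). Rps27l, which is a target of p53, had 103.6, 102.7 and 68.6 TPM against 447, 406 and 451 TPM for Rps27, a difference of 2.26 ± 0.39 (SD, n = 3). In both pairs the paralog was lowest in replicate 3, as was Rpl22, while Rps27 was highest there. Rpl39l and Rpl7l1 were also lowest in replicate 3. Rpl7l1 stood at 28.4, 28.95 and 25.9 TPM beside Rpl7 at 669, 629 and 556 TPM. Rps4l is annotated as a transcribed processed pseudogene and so is no member. It had 94.3, 78.5 and 79.8 TPM, against 284, 296 and 295 TPM for Rps4x, which is also X-linked.

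**Figure D3:**
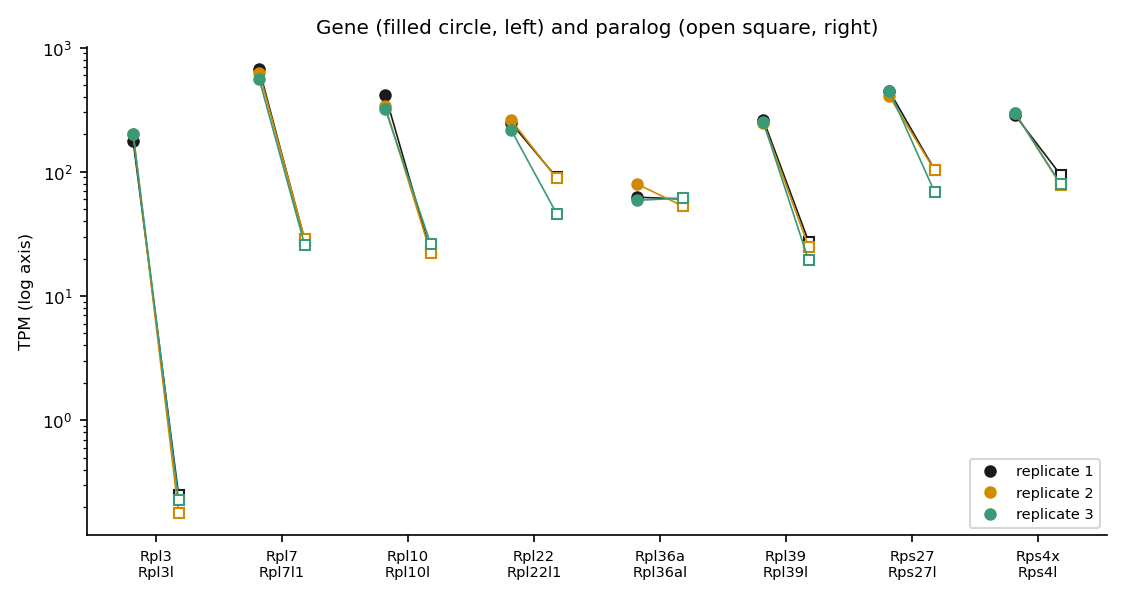
TPM (log axis) of 8 core genes (filled circles, left) and their paralogs (open squares, right), joined within each replicate. The paralog lies below the core gene in every replicate except for Rpl36a and Rpl36al, where the lines cross. Rpl22l1, Rps27l, Rpl39l and Rpl7l1 are lowest in replicate 3.

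The spread between replicates was measured next. The coefficient of variation of TPM over the 3 replicates had a median of 10.2% over the members. Over the other expressed protein-coding genes it was 23.9%, and their median count was lower (268 against 2532). A shift shared by a whole library enters this measure. The median TPM in replicates 1, 2 and 3 was 7, 5.51 and 4.33 for the other genes and 248, 249 and 215 for members. On counts scaled between libraries, described further on, it was the members that shifted. The coefficient was smallest for Rpl8 (0.78%), low also for Rpl13a (1.57%), and largest for Rpl22l1 (33.3%) and Rps3a1 (24.9%). In edgeR's goodness-of-fit test, which asks whether a gene's counts vary more between replicates than the trend over all genes predicts, 1 of the 83 members tested was called at an adjusted p under 0.05, or 1.20%, where 1.84% of all 12577 genes tested were called. At an unadjusted p under 0.05 there were 14 members (16.9%) and 6.96% of all genes. The member called was Rpl11, at 56.6, 86.9 and 134 TMM-scaled CPM (counts relative to the library total, with no length scaling) in replicates 1, 2 and 3 (adjusted p = 0.0392).

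Rpl11 binds Mdm2, the inhibitor of p53, when ribosome assembly fails. Its call was lost under most alternatives, with adjusted p from 0.0385 to 1.000 over the settings tried. With its copies merged the adjusted p in edgeR's test was 0.503, and with a correction for gene length 0.323. It was also lost without replicate 1 (0.999), without replicate 2 (0.182) and without replicate 3 (0.128). Without replicate 3, Rps3a1 (adjusted p = 0.00306) and Rps14 (adjusted p = 0.0171) were called instead in the same test. These were 2.41% of the members tested, against 0.68% of all genes tested in that setting. Merging of copies was not tried without replicate 3. With all replicates kept, merging took the unadjusted p in edgeR's test from 0.00172 to 0.726 for Rps3a1. For Rps14 it went from 0.0114 to 0.0107. At TPM the levels of Rpl11 were 50.3, 60.7 and 74.3 and those of Rps14 332, 434 and 434.

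Most members lay on the same side of their own mean in a given library. Each gene's log2 TMM-scaled CPM was compared with its mean over the replicates, in the 83 members and 8214 other genes whose counts averaged 100 or more. The median member lay at -0.27 in replicate 1, -0.03 in replicate 2 and 0.32 in replicate 3, while the median of the other genes was 0.00, 0.01 and 0.01. In replicate 1, 0 of 83 members lay above their mean, and in replicate 3, 81 of 83 did, against 49.96% and 51.05% of the other genes. The largest values in replicate 3 belonged to Rpl36 (0.65), Rpl29 (0.64) and Rpl11 (0.62), and the 2 members below 0 were Rpl22l1 (-0.21) and Rps27l (-0.04).

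Gene length moved with this pattern. The median effective length, the number of positions from which a fragment can come, was 516 nt for members and 2066 nt for the other expressed protein-coding genes. After a smooth correction for effective length within each replicate, the member medians were -0.08, 0.00 and 0.10, and 65 of 83 members lay above 0 in replicate 3 against 50.3% of the other genes. On deposited TPM rescaled over protein-coding nuclear genes the member medians were -0.16, 0.03 and 0.15. No value of the other genes is given on that scale, so these medians describe the members only. On deposited TPM without rescaling most members were not highest in replicate 3. Of the 84 members 46 were highest in replicate 1, 17 in replicate 2 and 21 in replicate 3, and 39 were lowest in replicate 3. The same counts over the other genes are not given, so these do not set the members apart from them. The summed TPM of the members was 27977, 25381 and 25758. On the log2(TPM + 1) scale the median member was at 7.96, 7.96 and 7.75 in replicates 1, 2 and 3. The median of the other expressed protein-coding genes was at 3.00, 2.70 and 2.41, so it fell more than that of the members. Whether length accounts for the whole pattern was not tested.

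**Figure D4:**
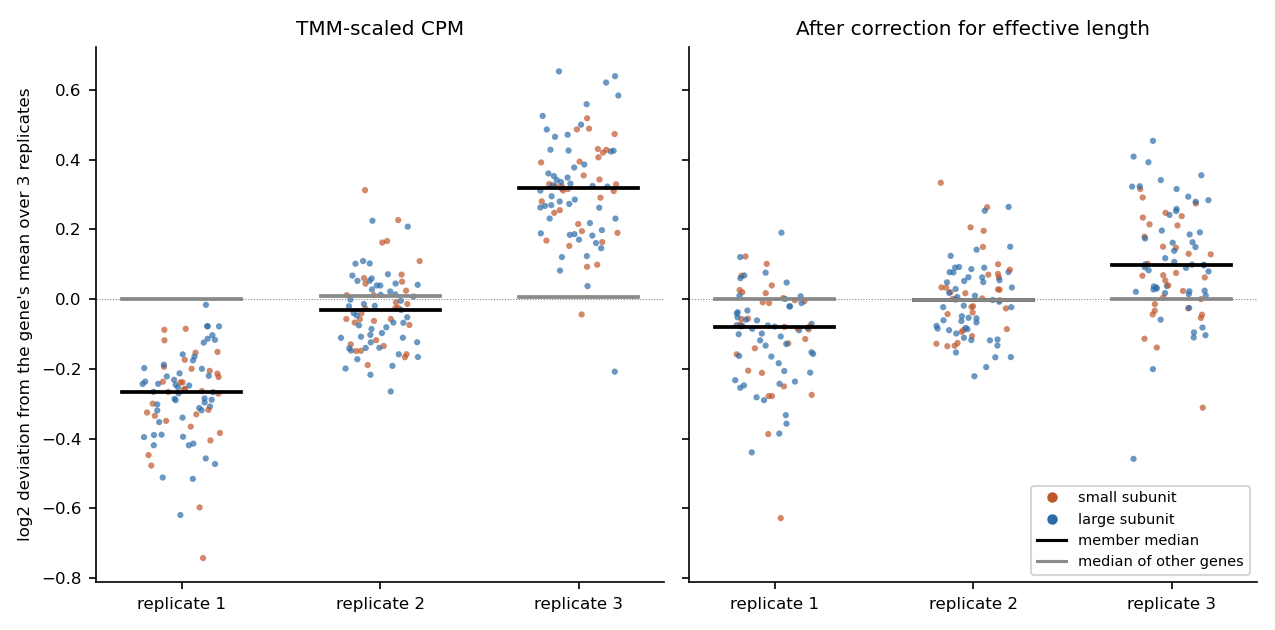
Deviation of each member's log2 expression from its own mean over 3 replicates, for TMM-scaled CPM (left) and after correction for effective length (right); points are the 83 members, black bars their median and grey bars the median of 8214 other genes. The member median goes from -0.27 in replicate 1 to 0.32 in replicate 3 on the left and from -0.08 to 0.10 on the right.

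Other genes of the ribosome pathway were read from lists. Of the subunit proteins with other names, Rack1, a signalling scaffold on the small subunit, had 903, 782 and 759 TPM. Fau, which makes a small subunit protein fused to a ubiquitin-like one, had 196, 178 and 175 TPM. All 28 assembly factors reached 1 TPM, with a median of 23.8 TPM and the highest level for Npm1, a nucleolar chaperone, at 1146 ± 77.9 TPM (SD, n = 3). Of the 28, 28 lay above their own mean in replicate 3 on the log2 TMM-scaled CPM scale, with a median of 0.20, against 51.05% of other genes. After the correction for effective length 27 did, with a median of 0.16, and their median effective length was 1504 nt. The 6 genes listed as chaperones or loading factors of ribosomal proteins were Grwd1, Heatr3, Tsr2, Bccip, Nap1l1 and Aar2. They had a median of 10.2 TPM and 5 of 6, all but Nap1l1, lay above their mean in replicate 3.

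Most genes listed under regulation of ribosomal protein messenger RNA translation lay below their mean in replicate 3. The list held Larp1, Mtor, Rptor, Mlst8, Eif4ebp1 and the kinase genes Rps6kb1, Rps6kb2, Rps6ka1 and Rps6ka3. A role of each in TOP motif control was not tested. All 9 reached 1 TPM, with a median of 6.18 TPM, and 2 of the 8 with enough counts lay above their mean there, with a median of -0.18, and -0.14 after the correction for effective length. Their median effective length was 3507 nt. Larp1 had 25.5, 18.01 and 8.87 TPM and Mtor 8.08, 7.16 and 3.30 TPM, while Eif4ebp1, the repressor of cap-dependent translation, had 156, 127 and 124 TPM. Trp53 had 35.1, 26.2 and 15.8 TPM and Mdm2 14.8, 11.9 and 10.9 TPM. At TPM each of these genes was highest in replicate 1 and lowest in replicate 3, as was the median of the other expressed protein-coding genes (7, 5.51 and 4.33 TPM). On the TMM-scaled CPM scale Larp1, Mtor, Trp53 and Mdm2 kept that order, while Eif4ebp1 was highest in replicate 3, at 312, 314 and 424. Of 48 genes tested on these 5 lists, 0 were called by edgeR's goodness-of-fit test at an adjusted p under 0.05 (1.84% of all genes tested), and 1 was under an unadjusted p of 0.05 (6.96% of all).

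The median member was a compact gene, and a minority of the members held small RNA genes. The median member had 5 exons and spanned 3328 nt, against 9 exons and 24668 nt for the other expressed protein-coding genes. They lie on 19 chromosomes, with the most, 14, on chromosome 7 and 4 on the X chromosome (Rpl10, Rpl36a, Rpl39 and Rps4x). Annotated snoRNA genes, whose products guide the modification of ribosomal RNA, lie on the same strand inside 30 of the 84 members (35.7%) and inside 1.87% of the other expressed protein-coding genes. There are 58 such snoRNA genes, of which 14 had a mean of at least 100 counts and 19 had no counts in any replicate. The highest was Gm26448 inside Rpsa with 1529, 1012 and 1788 counts, followed by Snora52 inside Rplp2 with 580, 388 and 547 and Snord15a inside Rps3 with 462, 382 and 424. These counts are not per length, because the effective lengths of genes this short are too small to scale by. The 19 with no counts had mean effective lengths of 0 to 1.25 nt, so their lack of counts cannot be read as a lack of expression.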

How the data were processed

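Per the file headers, the authors deposited for each of 55487 genes an estimated count (expected count, not normalized), TPM and FPKM, with length and effective length in nt. FPKM was not used. The submitters' processing notes name STAR, RSEM, Bowtie2, SAMtools, deepTools and the build mm10 without roles. The annotation release and strand setting are not given in the sources used here, so overlapping genes on opposite strands may share reads. Per the labels' protocols, directional libraries were made from Trizol RNA after ribosomal RNA depletion.

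Of the gene IDs, 55227 matched GENCODE vM21 (GRCm38), whose symbols and types chose the members. Members and lists were chosen with earlier results of these data known. Copies were found with blastn 2.17.0. Counts were rounded for edgeR 4.0.16 (R 4.3.3) with TMM, filterByExpr, trended dispersion and Benjamini-Hochberg adjustment over all genes tested. Levels were log2(TPM + 1). TPM depends on the short noncoding RNAs that share its total, so it was also rescaled over protein-coding nuclear genes. Alternatives changed pseudocount, unit, filter, normalization (DESeq2 1.42.0 size factors), length correction, dispersion, members and replicates. Merging of copies, the stricter limits, own-length scaling and leaving out paralogs were added after seeing the data. Genes given with a value in every replicate are the 5 highest and 5 lowest of each subunit, paralog pairs, X-linked, stalk and called members and the lists; others were chosen after their values were seen. Some genes under this rule are not reported here. A floor of 3 counts is 0.263, 0.464 and 0.518 CPM in replicates 1, 2 and 3. Other steps ran in Python 3.11.15 with pandas 2.3.3, numpy 2.4.6 and scipy 1.17.1. The variability test was checked on simulated counts, with 50 genes altered for every fold size in a single replicate. The altered genes were drawn from those with at least 50 expected counts in the smallest library. A 1.5-fold change was recovered for 1 of the 50, a 2-fold change for 7, a 4-fold change for 49 and an 8-fold change for 50. In that run 1 of 12389 genes was called falsely. Counts were simulated at the fitted trend of dispersion, with no further scatter between genes and no shift with gene length. The false call therefore describes that setting and not the calls in the real data.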

Additional observations from a re-analysis of the deposited data

How the results depend on the processing

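Of 100 alternatives over 14 results, 65 moved a value by less than its spread (the SD over replicates, or over members for the replicate 3 deviation) or a count by less than 1.5 times, and 2 changed a sign, both for Rpl36a over Rpl36al: -0.027 with CPM and -0.0052 without replicate 2, against 0.19 and up to 0.31 without replicate 3. The share of counts of 3.89% was 5.35% of protein-coding nuclear counts, 2.64% of TPM, 4.51% with pseudogenes named after members and 5.27% with copies. The large minus small difference of -0.79 was -0.49 with CPM, -0.43 with copies, -0.59 with copies over the gene's own length, -0.42 with copies at stricter limits and -0.68 without paralogs. The difference from other genes of 5.19 was 5.40 with a pseudocount of 0.1, 3.29 with CPM, 7.37 against all protein-coding genes, 4.73 with means and 6.04 with copies. The 1 varying member fell to 0 with every gene with a count, length correction, common dispersion, copies, or copies and length correction, and was 0 to 2 when leaving out 1 replicate. In edgeR's test at an unadjusted p under 0.05 these settings gave 14, 5, 17, 8 and 2 members in that order. Those were 16.7%, 6.02%, 20.5%, 9.64% and 2.41% of members, against 6.03%, 6.46%, 6.91%, 6.90% and 6.40% of all genes tested. Without replicates 1, 2 and 3 the members under that p numbered 3, 14 and 23. Those were 3.61%, 16.9% and 27.7% of members, against 5.47%, 5.67% and 3.75% of all genes tested. The replicate 3 deviation of 0.32 was 0.10 with length correction and 0.15 with TPM over protein-coding nuclear genes. With library totals it was 0.20, where the median of the other genes was -0.11, against 0.01 in the main setting. It was 0.17 without replicate 1 and 0.29 without replicate 2. These last values are deviations from the mean of the remaining replicates only, so they are not the same measure as 0.32. The causes were not tested. The number of members at 1 TPM or more was 83 in every alternative tried. No paired analysis was possible because only 1 group has tables. Depth limits Rpl3l, at 3 to 7 counts.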
